A study of Mus musculus with 15 samples.

Results

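The 9 genes described here belong to the DNA methylation machinery and to the Atrx-Daxx chromatin complex, and they were followed in mouse embryonic fibroblasts that lacked telomerase RNA and the Wrn helicase and that differed in p53 and in generation. The members were the 9 rows of the expression table whose gene symbol was Dnmt1, Uhrf1, Dnmt3a, Dnmt3b, Tet1, Tet2, Tet3, Atrx or Daxx, of 54495 genes in all. All fibroblasts carried mTR-/- and Wrn-/- deletions. TM fibroblasts were also homozygous for a p53 substitution (p53N236S/N236S), and DM fibroblasts had wild-type p53 (p53WT). Embryos were taken at E13.5 from mice of generation 1, 3 or 5 (G1, G3, G5), where the number counts generations bred without telomerase, and the cells were grown in 3% O2. There were 2 libraries of G1TM and 2 of G1DM, 3 of G3TM and 2 of G3DM, and 3 of G5TM and 3 of G5DM, which makes 15. The labels do not say whether replicates came from separate embryos, so p-values measure the spread between these libraries, which may be technical. The series title places the study in the question of how this p53 mutant acts on ageing, on the DREAM and MMB cell cycle complexes and on telomere replication. Wild-type and p53-mutant control fibroblasts are not analysed here.

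Mammalian cells keep DNA methylation through division because UHRF1 recognises half-methylated DNA behind the replication fork and recruits the maintenance methyltransferase DNMT1. DNMT3A and DNMT3B add methyl groups to unmethylated sites, and the TET dioxygenases oxidise 5-methylcytosine, which opens a route to its removal. ATRX and DAXX together deposit the histone variant H3.3 at telomeres and pericentric heterochromatin, and their loss is known in human tumours that maintain telomeres without telomerase.

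The promoter windows that held E2F letters are shown first, because the study concerns DREAM, which acts at promoters through E2F sites and the cell cycle genes homology region. RefSeq windows of 300 bases (GRCm38.p6, 250 bases before to 50 after an annotated start) were matched by symbol, which gave 16 windows for the 9 members. The letters TTCGCGC and TTGGCGC, as found in E2F sites, were searched on both strands, with no overlap between matches. They occurred in 3 of the 16 windows, 1 each of Dnmt1, Uhrf1 and Atrx, and in 3.89% of all 32851 windows. Matches are in capitals below.
Dnmt1, chr9:20952574-20952873, minus strand: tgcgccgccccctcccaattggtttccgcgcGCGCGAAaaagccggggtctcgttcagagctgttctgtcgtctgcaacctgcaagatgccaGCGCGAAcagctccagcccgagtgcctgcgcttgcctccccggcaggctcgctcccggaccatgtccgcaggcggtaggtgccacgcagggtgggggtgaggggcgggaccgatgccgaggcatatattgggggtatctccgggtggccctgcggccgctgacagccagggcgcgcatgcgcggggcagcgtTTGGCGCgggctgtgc
Uhrf1, chr17:56304063-56304362, plus strand: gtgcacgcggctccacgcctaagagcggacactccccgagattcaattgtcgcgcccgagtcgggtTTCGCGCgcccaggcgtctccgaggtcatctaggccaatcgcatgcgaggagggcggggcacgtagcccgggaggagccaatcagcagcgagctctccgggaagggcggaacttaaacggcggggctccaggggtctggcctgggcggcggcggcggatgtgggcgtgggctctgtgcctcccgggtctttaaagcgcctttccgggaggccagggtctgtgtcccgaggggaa
Atrx, chrX:105929323-105929622, minus strand: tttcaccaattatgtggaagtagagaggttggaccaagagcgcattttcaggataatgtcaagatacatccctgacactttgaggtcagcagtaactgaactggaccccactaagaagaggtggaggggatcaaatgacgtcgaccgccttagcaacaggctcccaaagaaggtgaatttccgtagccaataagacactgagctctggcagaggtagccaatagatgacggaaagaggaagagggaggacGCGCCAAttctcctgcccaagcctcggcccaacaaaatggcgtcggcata
The Dnmt1 window held 3 matches, at bases 32 to 38 and 93 to 99 on the strand opposite to the gene and at bases 285 to 291 on the gene's strand, counted from 1 at the 5′ end. The Uhrf1 window held 1, at bases 67 to 73 on the gene's strand, and the Atrx window 1, on the opposite strand. Dnmt1 had 2 other windows and Uhrf1 1 other, without these letters. The homology region letters TTTGAA were found in the Dnmt3b window and in another Dnmt1 window, 2 of the 16, against 17.9% of all windows. CG dinucleotides numbered 33 in both the Dnmt1 and the Uhrf1 window shown and 11 in the Atrx window. The range over the members' windows was 2 to 57, the highest in Tet2, with a median of 7 over all windows. A match is a run of letters and does not show that a factor binds there.

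Expression is given in FPKM (fragments per kilobase of listed length, relative to library size) as the authors deposited it. Differences are on the scale of log2(FPKM + 1), which understates changes of low genes, with their standard error (SE) and a p from limma adjusted by Benjamini and Hochberg over all 13562 genes tested. A gene was tested where it reached 1 FPKM in at least 2 libraries, and it was called at an adjusted p under 0.05. Of the members, 7 passed this filter. Dnmt3b and Tet1 reached 1 FPKM in 1 library each and were not tested.

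Some features of the libraries bear on every comparison. Reads recovered from the FPKM values totalled 17448588 to 29571111 per library. In 6 libraries, those of G3TM and G5TM, the mitochondrial ribosomal RNA mt-Rnr2 measured 44.7 to 73.6 FPKM, against 1.48 to 3.76 in the other 9. Genotype in G3 and G5 cannot be told apart from this division, which neither the G1 comparison nor the DM generations cross. Xist, which coats the inactive X, was at 0 FPKM in the G3TM libraries and at 3.04 and 3.36 in G3DM. Genotype in G3 therefore also cannot be told apart from sex. In G1, Xist was 0.00475 FPKM in G1DM replicate 1, 28.6 in G1DM replicate 2, and 26.9 and 18.1 in G1TM. The G1 comparison was thus not balanced for Xist, and the part of sex there was not tested. Terc, the deleted telomerase RNA, was listed at 0 in 14 libraries, and Wrn stayed between 0.0447 and 0.599 FPKM. The 9 fibroblast markers summed to 2663 to 4719 FPKM per library, but not all were even. Lum was 0.914 to 1.85 FPKM in the 6 G3TM and G5TM libraries and 5.64 to 34.8 in the other 9. Dcn was 0.838 to 1.85 FPKM in those 6 and 6.74 to 29.2 in the other 9. The remaining fibroblast markers overlapped between these sets. Of 7 pluripotent and germ cell markers, 4, Pou5f1 among them, were at 0 throughout and none reached 1 FPKM. Summed macrophage and leukocyte markers ranged from 5.42 to 370.2 FPKM in G3TM and lay between 6.95 and 111 in the other 5 groups. The 6 endothelial markers summed to 0.963 to 1.98 FPKM over the TM libraries and 2.35 to 5.09 over the DM libraries. No marker of that list separated the genotypes alone, and Pecam1 was highest in G3TM replicate 3 (0.307 FPKM). The epithelial markers summed to 19.5 to 50.3 FPKM in G5TM and 3.87 to 5.25 in G5DM. These sums were mostly Krt8 and Krt18, with Epcam and Cdh1 at most 0.233 in G5. In G3 the epithelial sums overlapped, at 22.7 to 75.5 in TM and 36.5 to 48.2 in DM. The neural markers summed to 95.1 to 148 FPKM in G5TM and 38.2 to 48.6 in G5DM. Of these, Tubb3 measured 77.1 to 110 in G5TM and 12.8 to 31.0 in G5DM. Sox2 was also higher in G5TM, Nes overlapped and Map2 was lower. Skeletal muscle sums overlapped in G1 and G3, but were lower in G5TM (17.9 to 59.5 FPKM) than in G5DM (68.3 to 133). Only Acta1 of that list was lower there without overlap, at 8.07 to 28.4 FPKM in G5TM and 64.8 to 129 in G5DM. Myog, Myod1, Mymk, Tnnt1 and Tnnt3 were each higher in every G5TM library than in any G5DM library, and Myh3 and Chrna1 overlapped. Myog measured 61.6 and 15.7 FPKM in G3TM replicates 2 and 3 and 1.97, 2.87 and 11.0 in G5TM. It stayed under 1 FPKM in G3TM replicate 1 and in G1TM, and was at most 1.04 in any DM library. Myod1 was likewise highest in G3TM replicate 2 (21.8 FPKM). The part of these cell types in the members' differences was not tested.

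The maintenance pair, Dnmt1 and Uhrf1, was higher in every TM library than in any DM library, whatever the generation. Dnmt1 had a median of 50.5 FPKM in TM and 24.3 in DM, and Uhrf1 a median of 59.2 in TM and 21.4 in DM. Dnmt1 (ENSMUSG00000004099, chromosome 9, 20907209 to 20959888) encodes the enzyme that copies methylation to the new strand. It measured 49.2 and 50.0 FPKM in G1TM, against 19.2 and 26.4 in G1DM. In G3 it measured 49.2, 51.5 and 52.5 FPKM in TM, against 24.6 and 24.3 in DM. In G5 the 3 TM libraries held 50.9, 36.2 and 54.7 FPKM and the 3 DM libraries 23.0, 18.2 and 28.1. All 8 TM libraries lay above all 7 DM libraries, a separation that 3.86% of tested genes showed in this direction. The lowest TM value was that of G5TM replicate 2.

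Uhrf1 (ENSMUSG00000001228, chromosome 17, 56303321 to 56323486), which brings DNMT1 to replicated DNA, behaved alike with a wider gap. G1TM held 49.6 and 57.2 FPKM and G1DM 14.3 and 23.1. G3TM held 55.4, 72.2 and 76.5 FPKM and G3DM 24.4 and 18.8. The G5TM values were 61.2, 40.2 and 76.8 FPKM, against 21.4, 12.5 and 21.6 in G5DM. Again the TM and DM libraries did not overlap. Within libraries the ratio of Uhrf1 to Dnmt1 FPKM was 1.01 to 1.46 in TM and 0.687 to 0.991 in DM, so Uhrf1 exceeded Dnmt1 in the 8 TM libraries and lay below it in the 7 DM libraries.

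**Figure D1:**
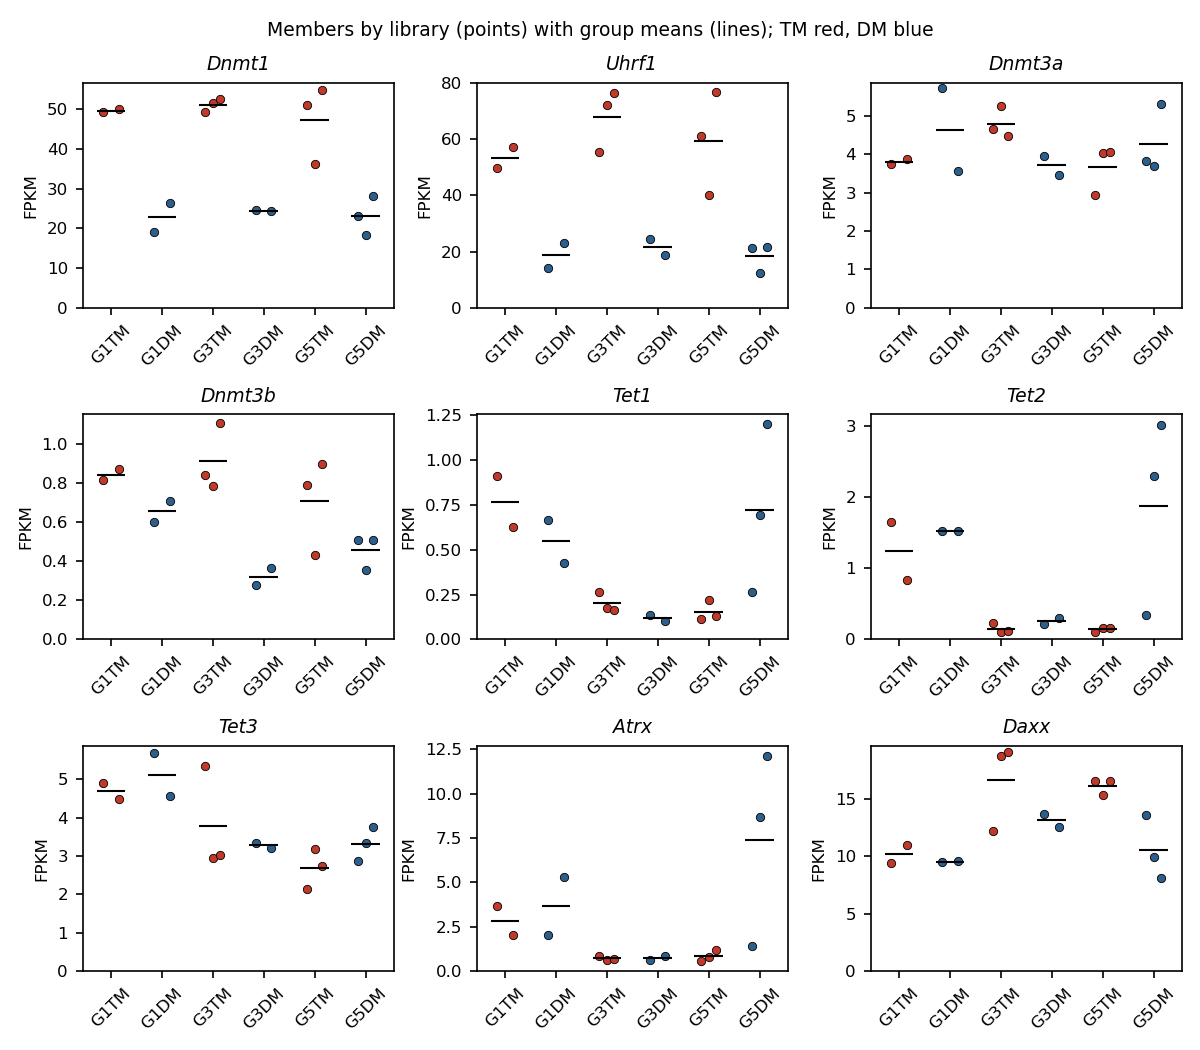
FPKM of the 9 members in each of the 15 libraries (points, TM red and DM blue) with group means (lines), each panel with its own axis from 0. Dnmt1 spans 36.2 to 54.7 FPKM over the TM libraries and 18.2 to 28.1 over the DM libraries with no overlap, while Atrx and Tet2 are highest in 2 of the 3 G5DM libraries.

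G1 was the comparison free of the library division, though not balanced for Xist. G1DM replicate 1, with almost no Xist, was also the lower G1DM library for Dnmt1 and Uhrf1. In G1, Dnmt1 was higher in TM by 1.10 ± 0.24 log2 units (SE, adjusted p = 0.048, limma). The Uhrf1 difference was larger, 1.50 ± 0.34 (SE), and missed the threshold (adjusted p = 0.0521, limma). Dnmt1 was thus the 1 member of 7 called in G1, where 1.17% of all tested genes were called, 0.361% higher and 0.811% lower. Both genes lay at the edge of the threshold: Dnmt1 was called under 11 of 25 alternative settings (adjusted p 0.0266 to 0.389) and Uhrf1 under 10 of 25 (0.0147 to 0.422). In a fit without the 6 G3TM and G5TM libraries Dnmt1 did not pass (1.10, adjusted p = 0.111). Leaving out any 1 of 9 libraries ended the Dnmt1 call, among them G1DM replicate 1 (0.88, adjusted p = 0.389), G1TM replicate 1 (1.12, adjusted p = 0.279) and G1TM replicate 2 (1.09, adjusted p = 0.354). The others were both G3DM libraries, G3TM replicates 2 and 3 and G5TM replicates 1 and 3 (adjusted p 0.0568 to 0.0769). The differences of the pair were much the same size in the later generations. Dnmt1 was higher in TM by 1.03 ± 0.22 in G3 (SE, adjusted p = 0.00428, limma) and by 1.00 ± 0.20 in G5 (adjusted p = 0.00113). Uhrf1 was higher by 1.61 ± 0.31 in G3 (adjusted p = 0.00225) and by 1.62 ± 0.28 in G5 (adjusted p = 0.000426). These were the 2 called members in G3, against 32% of all tested genes (18% higher and 13.9% lower), and 2 of the 5 called in G5, against 58.7% (30.3% higher and 28.4% lower). With each library scaled to an equal total of tested genes, which shifted the differences of all genes in G5 by a median of −0.48, Dnmt1 was higher in G5TM by 0.43 and no longer passed (adjusted p = 0.0766), and with quantile normalization by 0.47 (adjusted p = 0.0545). Neither difference departed from that in G1 by the interaction test (G5 less G1, Dnmt1 −0.10 ± 0.32, adjusted p = 0.83; Uhrf1 0.12 ± 0.44, adjusted p = 0.855, limma).

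As a mean over the generations, Dnmt1 was higher in TM by 1.05 ± 0.13 (SE, adjusted p = 3.93e-05, limma) and Uhrf1 by 1.58 ± 0.18 (adjusted p = 2.14e-05), and both kept these calls under all 23 alternatives. Generation left the pair level: within TM and within DM no difference of either gene between generations was called. Equal totals and quantile normalization were exceptions for Dnmt1, which was then lower in G5TM than in G1TM (−0.67 under each, adjusted p = 0.0236 and 0.0217). Group means of Dnmt1 ran 51.1 ± 1.7 (G3TM), 49.6 ± 0.55 (G1TM) and 47.3 ± 9.8 (G5TM) FPKM, then 24.4 ± 0.22 (G3DM), 23.1 ± 4.9 (G5DM) and 22.8 ± 5.1 (G1DM), with SD over 2 or 3 libraries. Only the step from G5TM to G3DM in that order exceeded the spread.

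Summed FPKM of 14 S phase genes divided the libraries in the same way. The sums were 369.5 to 680 over the TM libraries and 126 to 256 over the DM libraries. Taken singly, 3.86% of tested genes separated them in this direction. The 14 genes encode replication licensing and nucleotide synthesis factors and serve as markers of cells in S phase. Mki67, a proliferation marker outside this list, did not divide the genotypes. It measured 5.37 to 40.9 FPKM in TM (median 5.93) and 2.57 to 41.3 in DM (median 6.73). These pooled values cross the library division. In the 6 G3TM and G5TM libraries Mki67 measured 5.37 to 7.51 FPKM, and in the other 9 it measured 2.57 to 41.3 (median 20.8). In G1, 2 of the 14 were called higher in TM and none lower, Mcm6 by 1.42 ± 0.30 and Cdc45 by 1.34 ± 0.28 (SE), with a median difference of 1.16 over the list and 0.02 over all tested genes, and all 14 had an unadjusted p under 0.05. Called higher were 12 of 14 in G3, against 18% of all tested genes, and 11 of 14 in G5, against 30.3% (11 in each with equal totals), with medians of 1.57 and 1.36, and Mcm5, a subunit of the replicative helicase, led both, at 2.39 ± 0.44 and 2.26 ± 0.39. In bulk RNA, more cells in S phase and more RNA per cell cannot be told apart, and the part of the S phase genes in the Dnmt1 and Uhrf1 differences was not tested. The 3 tested protein-coding genes whose pattern over the 15 libraries was nearest to that of Dnmt1 were Melk, Cenpn and Spag5, with a root mean square difference of 0.0987 to 0.116 log2 units after each gene's mean was removed. Those nearest to Uhrf1 were Cdca7, Ncapd2 and Lmnb1, at 0.114 to 0.176.

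**Figure D2:**
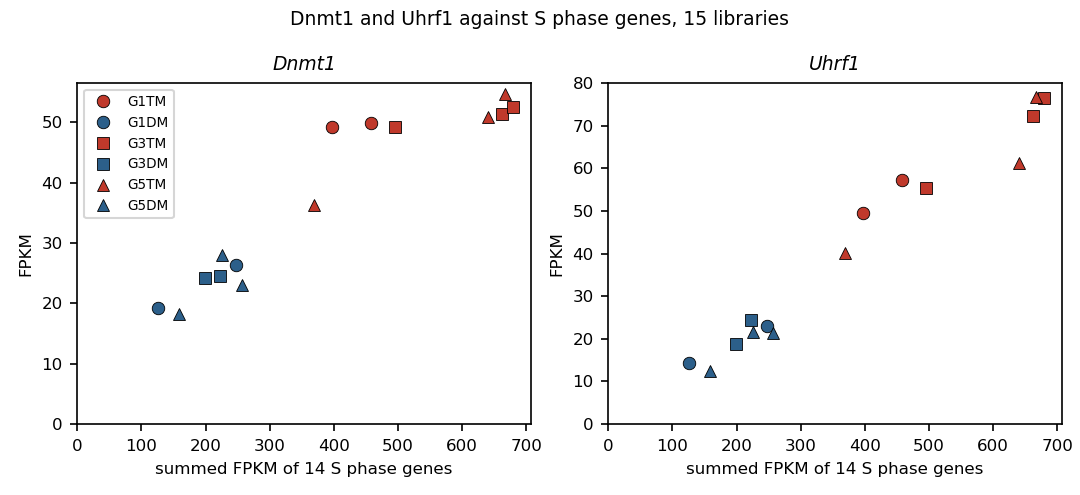
FPKM of Dnmt1 and Uhrf1 (vertical axes) against the summed FPKM of 14 S phase genes (horizontal axis) in the 15 libraries, TM red and DM blue, with symbols for generation. TM libraries lie at 369.5 to 680 on the horizontal axis, DM libraries at 126 to 256, and both genes separate them in the same way.

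The de novo methyltransferases were far lower. Dnmt3a showed no called difference between TM and DM on the deposited scale, and Dnmt3b was tested only without the filter or in recovered reads. Dnmt3a (ENSMUSG00000020661, chromosome 12, 3806007 to 3914443) measured 3.74 and 3.88 FPKM in G1TM, against 5.71 and 3.56 in G1DM. In G3 the values were 4.66, 5.25 and 4.48 FPKM in TM and 3.95 and 3.47 in DM. In G5 they were 2.94, 4.03 and 4.06 FPKM in TM and 3.83, 3.69 and 5.30 in DM. The groups overlapped in G1 and G5. In G3 the TM libraries lay above the DM libraries, as for 31.6% of tested genes, without a call (0.30 ± 0.20, SE, adjusted p = 0.272, limma). Group means ran from 3.68 ± 0.64 in G5TM to 4.80 ± 0.41 FPKM in G3TM (SD, n = 3 each). No comparison called Dnmt3a. Its G5 difference of −0.17 ± 0.18 depended on the scaling, since it was −0.64 with equal totals (adjusted p = 0.0329) and 0.89 with a trend on gene length removed (adjusted p = 0.00359).

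Dnmt3b (ENSMUSG00000027478, chromosome 2, 153649450 to 153687730) was low, with 27 to 132 recovered reads per library. It measured 0.81 and 0.87 FPKM in G1TM, against 0.60 and 0.71 in G1DM. In G3 the TM libraries held 0.84, 0.78 and 1.11 FPKM and the DM libraries 0.28 and 0.37. In G5 the values were 0.79, 0.43 and 0.90 FPKM in TM and 0.51, 0.35 and 0.51 in DM. TM lay above DM without overlap in G1 and G3, as did 26.4% and 31.6% of tested genes, and 1 G5TM library fell among the G5DM values. Without the filter Dnmt3b was higher in TM by 0.53 in G3 (adjusted p = 0.0485, limma), and by 1.48 in reads recovered from FPKM and fitted with voom (adjusted p = 0.0139). Its mean difference over the generations was 0.30 without the filter (adjusted p = 0.0293, limma) and 0.82 with voom (adjusted p = 0.00519), and it was called under neither in G1 or G5. The ratio of Dnmt3a to Dnmt3b FPKM was 4.04 to 6.69 in G3TM and 9.49 to 14.3 in G3DM.

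Among the TET genes, Tet3 held the largest part of the summed FPKM in every library, while Tet1 and Tet2 were low in both genotypes of G3 and in G5TM. Tet3 (ENSMUSG00000034832, chromosome 6, 83362373 to 83459084) measured 4.91 and 4.49 FPKM in G1TM, against 5.70 and 4.56 in G1DM. In G3 it measured 5.36, 2.95 and 3.03 FPKM in TM and 3.35 and 3.22 in DM. In G5 the TM libraries held 2.14, 3.17 and 2.73 FPKM and the DM libraries 2.88, 3.33 and 3.76. The genotypes overlapped in each generation, and no TM minus DM difference was called (−0.10 ± 0.23 in G1, 0.12 ± 0.21 in G3 and −0.24 ± 0.19 in G5, SE). Across generations of TM, Tet3 was lower in G5 than in G1 by −0.64 ± 0.21 (SE, adjusted p = 0.0248, limma), a call lost without G1TM replicate 1 (adjusted p = 0.145), G1TM replicate 2 (0.0753) or G5TM replicate 1 (0.0831) and without the filter (0.0568). With a trend on gene length removed it turned direction and was called higher (0.51, adjusted p = 0.0304, limma).

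Tet2 (ENSMUSG00000040943, chromosome 3, 133463679 to 133545139), which unlike its relatives has no DNA-binding CXXC domain of its own, varied far more. It measured 1.65 and 0.83 FPKM in G1TM, against 1.52 in each G1DM library. In G3 it was 0.22, 0.10 and 0.12 FPKM in TM and 0.21 and 0.30 in DM. In G5 it was 0.11, 0.16 and 0.16 FPKM in TM, whereas the DM libraries held 0.34, 2.29 and 3.01. Replicate 1 of G5DM thus resembled the G3 libraries, and the other 2 G5DM libraries were the highest of all. Tet2 was lower in TM than in DM in G5 by −1.19 ± 0.31 (SE, adjusted p = 0.00569, limma), and the differences in G1 (−0.20 ± 0.38) and G3 (−0.13 ± 0.35) were not called. It was also lower in G3TM and in G5TM than in G1TM, by −0.94 ± 0.35 (adjusted p = 0.0398) and −0.95 ± 0.35 (adjusted p = 0.0369). Both TM generation calls ended without G1TM replicate 1, where the differences were −0.67 (adjusted p = 0.28) and −0.68 (adjusted p = 0.266). That against G3TM also ended without G1TM replicate 2, any G3 library or G5TM replicate 1 or 3, and that against G5TM without any G5TM library.

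Tet1 (ENSMUSG00000047146, chromosome 10, 62804570 to 62908996) was lower still, with 29 to 534 recovered reads per library. It measured 0.91 and 0.63 FPKM in G1TM, against 0.66 and 0.43 in G1DM. In G3 the values were 0.27, 0.18 and 0.17 FPKM in TM and 0.14 and 0.10 in DM. In G5 they were 0.11, 0.22 and 0.13 FPKM in TM and 0.26, 0.70 and 1.20 in DM. All 3 G5TM libraries lay below the 3 G5DM libraries, as for 28.3% of tested genes. In G3 TM lay above DM, as for 31.6% of tested genes, on 39 to 108 reads in TM and 31 and 41 in DM. Without the filter the G5 difference was −0.54 (adjusted p = 0.0348, limma), and with voom on recovered reads −2.03 (adjusted p = 0.00658). Of the summed FPKM of the 3 TET genes, Tet3 held 91.3% to 91.6% in G3TM and 88.7% to 90.5% in G3DM, 89.3% to 90.7% in G5TM and 47.2% to 82.8% in G5DM, and 65.7% to 75.5% in G1TM and 70.0% to 72.3% in G1DM. The sum itself was 2.36 to 3.55 FPKM in G5TM and 3.48 to 7.98 in G5DM.

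**Figure D3:**
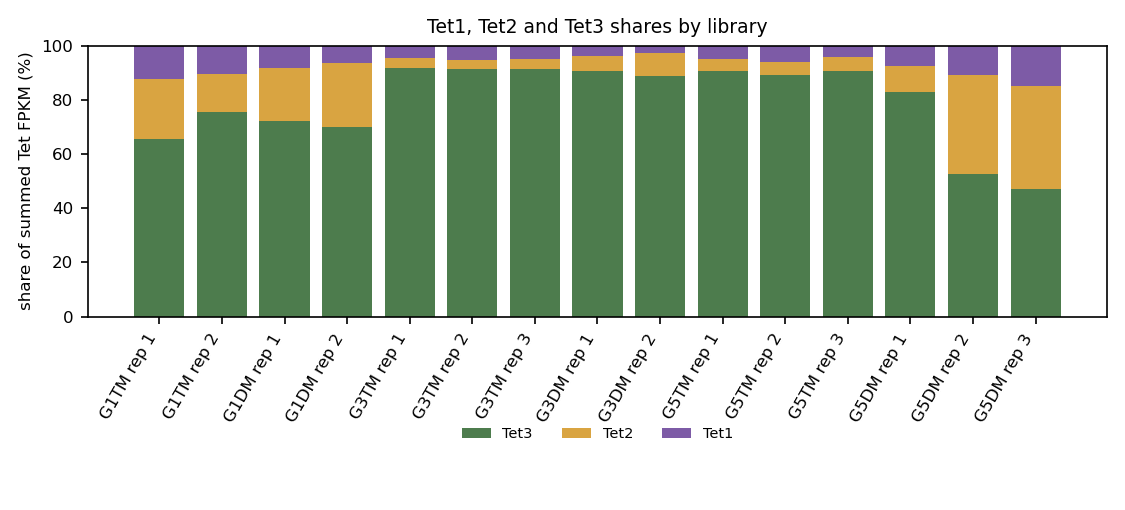
Share of the summed Tet FPKM (vertical axis, percent) held by Tet3, Tet2 and Tet1 in each of the 15 libraries, with TM before DM in each generation. Tet3 holds 88.7% or more in both G3 groups and in G5TM, and 47.2% at the lowest in G5DM.

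Atrx and Daxx, the partners in H3.3 deposition, moved in opposite directions in G5. Atrx (ENSMUSG00000031229, X chromosome, 105797615 to 105929403) encodes the chromatin remodeller of the pair. It measured 3.64 and 2.02 FPKM in G1TM, against 2.00 and 5.30 in G1DM. In G3 it was 0.82, 0.64 and 0.66 FPKM in TM and 0.64 and 0.83 in DM. In G5 it was 0.57, 0.79 and 1.20 FPKM in TM, against 1.42, 8.71 and 12.1 in DM. Both G3 groups and G5TM formed 1 low range, G1 lay above it, and 2 of the 3 G5DM libraries were higher than every other library. Atrx was lower in TM than in DM in G5 by −1.88 ± 0.48 (SE, adjusted p = 0.00503, limma), and did not pass in G1 (−0.22 ± 0.59) or G3 (−0.02 ± 0.54). The difference between G5 and G1 in this contrast was −1.66 ± 0.76 and was not called (adjusted p = 0.123). As a mean over generations the difference was −0.71 ± 0.31 (adjusted p = 0.0681).

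G5DM replicate 1 decided several of these values. Without it, the mean TM minus DM difference of Atrx was −0.95 (adjusted p = 0.000434, limma) and its G5 less G1 interaction −2.40 (adjusted p = 0.0013). Atrx was then also called lower in G3TM and in G5TM than in G1TM (adjusted p = 0.0056 and 0.00896). Tet2 had an interaction of −1.47 (adjusted p = 0.0011) without the same library. Within DM, Atrx was higher in G5 than in G3 by 1.96 ± 0.54 (SE, adjusted p = 0.0524), and by 2.70 without that library (adjusted p = 0.000116). Calls over all 13562 tested genes rose as well in the fit without it. They numbered 8669 for the mean, against 7339 with all libraries, and 5756 for the G5 less G1 interaction, against 2683. For G3 and G5 minus G1 in TM they were 7392 and 7683, against 6350 and 6718, and for G5 minus G3 in DM 3107, against 676. On the deposited scale with all libraries no member was called by limma or by voom between generations of DM, where 0.214% (G3 minus G1), 0.059% (G5 minus G1) and 4.98% (G5 minus G3) of genes were called. For G5 minus G3, Atrx was called with a pseudocount of 0.1 (2.72, adjusted p = 0.0419, limma) and with the length trend removed (1.45, adjusted p = 0.045). An unadjusted p under 0.05 was reached by 3 members in G3DM minus G1DM (Tet2 −1.00 ± 0.38, Tet3 −0.51 ± 0.23 and Atrx −1.33 ± 0.59, SE), by 1 in G5DM minus G1DM (Tet3 −0.50 ± 0.21) and by 2 in G5DM minus G3DM (Atrx, and Tet2 at 1.05 ± 0.35).

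Daxx (ENSMUSG00000002307, chromosome 17, 33909414 to 33915589), the H3.3 chaperone of the pair, was steadier. It measured 9.42 and 11.0 FPKM in G1TM, against 9.50 and 9.59 in G1DM. In G3 it was 12.245, 18.746 and 19.097 FPKM in TM and 13.7 and 12.6 in DM. In G5 it was 16.5, 15.4 and 16.6 FPKM in TM and 13.6, 9.91 and 8.10 in DM. The genotypes overlapped in G1 and G3, and all G5TM libraries exceeded all G5DM libraries, as for 29.6% of tested genes. Daxx was higher in TM in G5 by 0.60 ± 0.20 (SE, adjusted p = 0.0193, limma), a call lost without G5DM replicate 2 (adjusted p = 0.0597), G5DM replicate 3 (0.093), G5TM replicate 1 (0.0517) or G5TM replicate 3 (0.051). With libraries scaled to an equal total of tested genes the Daxx difference in G5 was 0.06 (adjusted p = 0.714). Within TM it was higher in G3 than in G1 by 0.64 ± 0.22 (adjusted p = 0.031) and in G5 than in G1 by 0.62 ± 0.22 (adjusted p = 0.033), calls that ended without G1TM replicate 1 (adjusted p = 0.198 and 0.202) or 2 (0.0704 and 0.0728). The first also ended without G3TM replicate 2 or 3, and the second without G5TM replicate 1 or 3. With equal totals these differences were 0.08 and 0.07 (adjusted p = 0.663 and 0.718). Within libraries the ratio of Daxx to Atrx FPKM was 13.8 to 28.9 in G5TM and 0.668 to 9.61 in G5DM, 15.0 to 29.3 in G3TM and 15.1 to 21.6 in G3DM, and 2.59 to 5.42 in G1TM and 1.81 to 4.74 in G1DM.

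Over the members as a whole, 3 were higher (Dnmt1, Uhrf1 and Daxx) and 2 lower (Tet2 and Atrx) in TM than in DM in G5, 5 of 7 tested against 58.7% of all genes. With equal totals the split was 1 higher (Uhrf1) and 3 lower (Dnmt3a, Tet2 and Atrx). Averaged over generations 4 of 7 were called, against 54.1%, with Tet2 (−0.51 ± 0.20, SE, adjusted p = 0.0465, limma) and Daxx (0.33 ± 0.13, adjusted p = 0.0441) near the threshold. Each of these 2 calls was lost in 13 of 15 fits that left out a library, where the number of members called ran from 2 to 5, and the Tet2 mean was 0.032 with the length trend removed. Within TM 2 members were called between G3 and G1, against 46.8% of genes, and 3 between G5 and G1, against 49.5%. None was called between G5 and G3 of TM, where 0.0295% of genes were (4 genes, limma), none of the 7 had an unadjusted p under 0.05 there, and voom called 0 members. The members' shares in the later comparisons lay near those of all genes. The interactions called no member, against 2.42% of genes for G3 less G1 and 19.8% for G5 less G1. Unadjusted p-values under 0.05 numbered 0 and 1 (Atrx in G5), and voom called 0 and 1 (Tet1 in G5, −2.55, adjusted p = 0.0351).

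Gene length moved with the Atrx and Tet2 values. The listed lengths of Atrx (21757 bases), Tet2 (16870), Tet3 (16695), Dnmt3a (16642) and Tet1 (15457) put 5 members among the long genes, while Dnmt1 (7377), Dnmt3b (5106), Uhrf1 (4259) and Daxx (3058) were shorter. The 1109 tested genes of 10 kb or more had a median of 4.36 and 4.89 FPKM in the G1TM libraries and 4.72 and 4.95 in G1DM. In G3 their median was 2.01 to 3.01 FPKM in TM and 3.03 and 3.35 in DM. In G5 it was 1.88 to 2.30 FPKM in TM, while G5DM replicate 1 had 3.35 and replicates 2 and 3 had 5.05 and 5.35. The libraries with the highest medians were therefore those with the most Atrx and Tet2. Of these long genes 67.4% were called lower and 4.06% higher in TM in G5, with a median log2 difference of −0.78, and 28.4% of all tested genes were called lower. After a quadratic trend on log2 gene length was removed from each library, the G5 difference was −0.50 for Atrx (adjusted p = 0.226, limma), −0.11 for Tet2 (0.674) and 0.31 for Daxx (0.116), so these 3 calls ended. Dnmt1 (1.28, adjusted p = 0.000229) and Uhrf1 (1.51, adjusted p = 0.000505) kept theirs, and Dnmt3a (0.89, adjusted p = 0.00359) and Tet3 (0.83, adjusted p = 0.000847) were called higher.

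**Figure D4:**
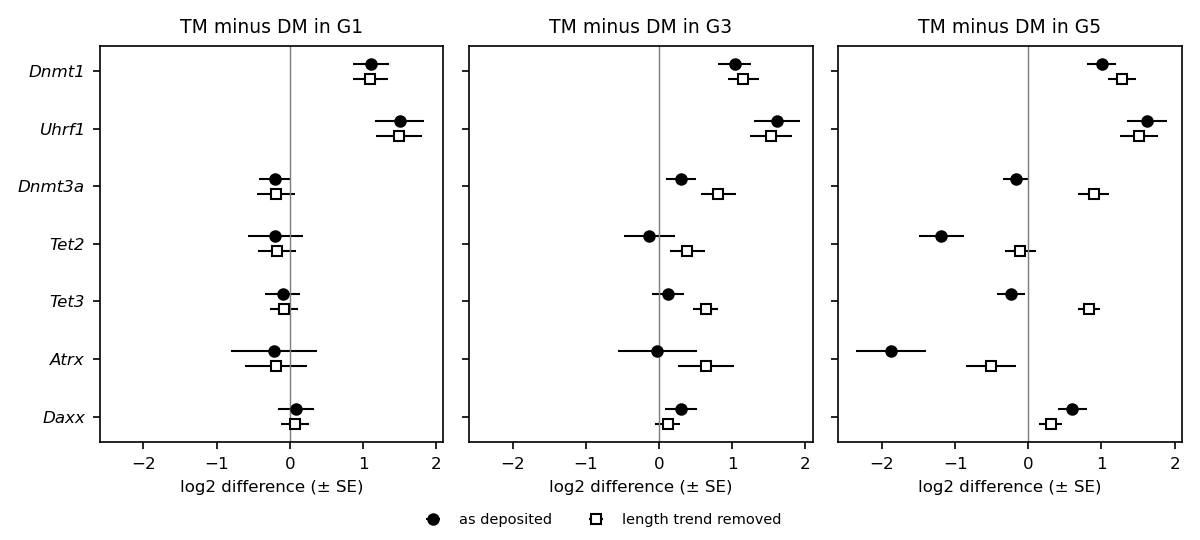
TM minus DM difference of the 7 tested members on the scale of log2(FPKM + 1) in G1, G3 and G5 (horizontal axis, bars ± SE), as deposited (filled circles) and after removal of a trend on gene length (open squares). Dnmt1 and Uhrf1 lie near 1 and 1.5 in each panel under both, while Atrx in G5 moves from −1.88 to −0.50 and Tet2 from −1.19 to −0.11.

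**Figure D5:**
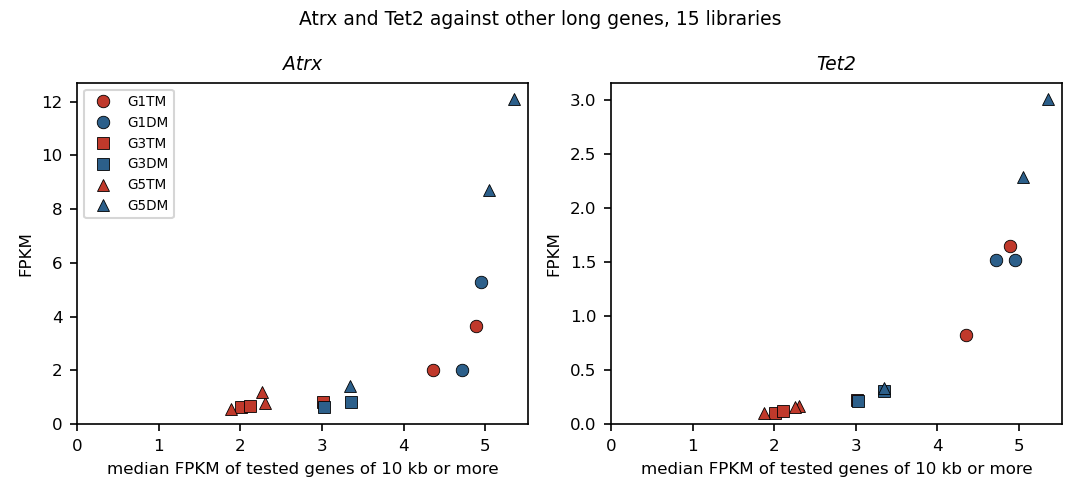
FPKM of Atrx and Tet2 (vertical axes) against the median FPKM of the 1109 tested genes of 10 kb or more (horizontal axis) in the 15 libraries, TM red and DM blue, with symbols for generation. The 6 G3TM and G5TM libraries lie at medians of 1.88 to 3.01, and the 2 libraries highest in both genes, G5DM replicates 2 and 3, at 5.05 and 5.35.

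Atrx is X-linked, and Xist differed between the libraries compared. The 2 G5DM libraries with 8.71 and 12.1 FPKM of Atrx had 0.0180 and 0.00967 FPKM of Xist, and G5DM replicate 1 had 4.88. G5TM libraries had 0, 2.45 and 3.61 FPKM of Xist with 0.57, 0.79 and 1.20 FPKM of Atrx, and the 3 G3TM libraries had none with 0.64 to 0.82. Libraries with little or no Xist thus held both the lowest and the highest Atrx values, and the part of sex was not tested. The patterns nearest to that of Atrx over the 15 libraries were those of Thoc2, Prpf39 and Ttc14, at a root mean square difference of 0.116 to 0.180 log2 units and listed lengths of 10515 to 12666 bases. Fcho2, Zfp329 and Uvssa were nearest to Tet2 at 0.0816 to 0.102, and Spast, Ubp1 and Gpr161 to Tet3 at 0.117 to 0.145. Vps4a and Idh3b were among the nearest to Daxx, at 0.0784 and 0.0813. For Dnmt3a, Dnmt3b and Tet1, whose own deviations were 0.202, 0.207 and 0.309 log2 units, the nearest were Ankzf1, Lrp4 and Ift172, then Smpd4, Fip1l1 and Ints12, then Zfp599, Primpol and Ccdc191.

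Genes that work with the members were read from lists of the pathway. In G1 none of the tested genes of the next 6 lists was called with limma, and 0 to 4 genes a list had an unadjusted p under 0.05. The later counts moved with the scaling, and those in G5 with equal totals are given beside them. With the length trend removed, 6 partners of the methyltransferases were higher and 0 lower in G5, and 1 and 3 of the methylation readers. Base excision genes then numbered 5 higher and 1 lower, and TET regulators 3 and 1. Methionine cycle genes numbered 2 and 0, and genes around Atrx and Daxx 5 and 2. Over all tested genes 18% were called higher and 13.9% lower in G3, and 30.3% and 28.4% in G5, which is 58.7% in all. Of 14 tested partners of the methyltransferases, 5 were higher and none lower in TM in G3, and 6 were higher and 3 lower in G5 (5 and 7 with equal totals), 9 of 14 called in G5 against 58.7% of all genes. Cdca7, which activates the remodeller HELLS, averaged 17.2 ± 3.4 FPKM in G3TM and 4.75 ± 1.2 in G3DM (SD, n = 3 and 2; log2 1.66 ± 0.34, SE), and Pcna, the sliding clamp that is also among the S phase genes, 73.1 ± 12 FPKM in G3TM and 27.0 ± 1.7 in G3DM (1.40 ± 0.29). Trim28, the corepressor of KRAB zinc finger proteins, was higher by 1.23 ± 0.35 in G3 and 1.61 ± 0.31 in G5. Hells itself averaged 1.67 ± 0.33 FPKM in G3TM and 1.04 ± 0.14 in G3DM (SD). In G5 it averaged 1.60 ± 0.90 FPKM in TM and 5.08 ± 3.4 in DM. Its G5 less G1 interaction was −2.10 ± 0.61 (SE, adjusted p = 0.0329, limma). The median of these partners was 0.36 in G3 and −0.12 in G5, beside 0.01 and 0.02 over all genes. With the length trend removed it was 0.14 in G5.

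Of 10 listed methylation readers and relatives of readers, 1 was higher and 5 lower in TM in G5 (1 and 7 with equal totals). This called share was near the 58.7% of all genes, and the median was −0.48. With the length trend removed the median was −0.035. The 1 higher was Mbd3, listed as a relative and a subunit of the NuRD complex. It averaged 325 ± 49 FPKM in G5TM and 68.6 ± 32 in G5DM (SD, n = 3 each). Its log2 difference was 2.31 ± 0.29 (SE, adjusted p = 7.17e-05, limma). Zbtb33 (Kaiso) and Zbtb38 were lower by −1.51 ± 0.26 and −1.31 ± 0.28. In G3 Mbd3 was higher by 1.85 ± 0.33, and Zbtb4 was lower by −1.48 ± 0.29.

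Of 12 tested genes for the base excision steps of active demethylation, 5 were higher in TM in G3 and none lower, and in G5 5 were higher and 2 lower (5 and 3 with equal totals), with medians of 0.63 and 0.44. The called share in G5, 7 of 12, was near the 58.7% of all genes. The largest differences were those of Gadd45g (1.97 ± 0.31 in G3, 2.11 ± 0.27 in G5), Gadd45b (1.70 ± 0.34 and 1.92 ± 0.31) and the abasic site endonuclease Apex1 (1.49 ± 0.32 and 1.85 ± 0.28). Among 10 tested regulators of the TETs and enzymes around 2-oxoglutarate, their co-substrate, 2 were higher and none lower in G3, and 5 were higher and 1 lower in G5 (2 and 2 with equal totals), again near 58.7% called. Idh2, the mitochondrial isocitrate dehydrogenase, averaged 115 ± 8.6 FPKM in G5TM and 30.1 ± 7.4 in G5DM (1.93 ± 0.24), and Ogt, a glycosyltransferase bound by TET proteins, 6.11 ± 2.0 FPKM in G5TM and 22.8 ± 10 in G5DM (−1.66 ± 0.33). Of 10 tested genes of the methionine cycle, 4 were higher and 1 lower in G3, where 8 had an unadjusted p under 0.05, and 4 were higher and none lower in G5 (2 and 2 with equal totals), below the 58.7% of all genes, with Shmt2 (1.39 ± 0.39) and Shmt1 (1.38 ± 0.32), which feed one-carbon units, the largest.

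Around Atrx and Daxx, 17 of 18 listed genes were tested; 6 were higher and 1 lower in TM in G3, and 4 higher and 3 lower in G5 (4 and 7 with equal totals), 7 of 17 called in G5 against 58.7% of all genes. Pml, which scaffolds the nuclear bodies where DAXX resides, averaged 8.35 ± 1.5 FPKM in G5TM and 22.6 ± 3.0 in G5DM (SD, n = 3 each), lower by −1.34 ± 0.17 (SE, adjusted p = 7.2e-05, limma). In G3 Pml averaged 10.2 ± 1.9 FPKM in TM and 25.8 ± 0.93 in DM. The histone chaperone Asf1b was higher by 1.65 ± 0.33 in G3 and 1.31 ± 0.30 in G5, and Suv39h1, which trimethylates histone H3 at lysine 9, by 1.16 ± 0.30 and 1.26 ± 0.26. In this list the medians were 0.24 and 0.14.

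Germline genes that promoter methylation silences in somatic cells stayed low in every group. None of the 16 listed passed the filter, and the highest value of any was 1.02 FPKM, for Sycp1 in G5DM replicate 3. Sycp1, a synaptonemal complex gene, otherwise measured 0.0172, 0.0465 and 0.0837 FPKM in G5TM and 0.0467 and 0.623 in the other 2 G5DM libraries. Rhox5, an X-linked homeobox gene, lay the other way, at 0.316 to 0.731 FPKM in G5TM and 0 to 0.220 in G5DM, and at 0.151 to 0.524 in G3TM and 0 to 0.138 in G3DM. Tex19.1 measured 0.0636 to 0.164 FPKM in G5TM and was listed at 0 in the 3 G5DM libraries. Neither Rhox5 nor Tex19.1 was tested, and 29.6% of tested genes lay higher in TM without overlap in G5 and 31.6% in G3. A single read on a gene of 1 kb was 0.0336 to 0.0679 FPKM, so the values of both rest on few reads. Dazl, a germ cell RNA-binding protein, did not exceed 0.0182 FPKM. Methylation itself was not measured.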

How the data were processed

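Polyadenylated RNA of 15 fibroblast libraries was sequenced. The authors deposited 1 table of FPKM for 54495 genes with gene lengths. The submitters' processing notes name, without roles, HISAT2 2.0.5, CASAVA 1.8, DESeq2 1.20.0, fastp and featureCounts 1.5.0-p3. The build is not given in the sources used here. Coordinates are as the table lists them and equal those of GENCODE vM21 for 98.2% of identifiers. FPKM times gene length was a whole multiple of 1 step per library for 100% of values (tolerance 0.05 reads), which gave back read numbers.

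Values of log2(FPKM + 1) for 13562 genes (1 FPKM or more in at least 2 libraries) entered limma 3.58.1 (R 4.3.3) as 6 group means in a single fit. Variances were moderated along an intensity trend. Tests were two-sided, with Benjamini-Hochberg adjustment and calls under 0.05. The fit was checked on simulated data. Alternatives changed the pseudocount (0.1), filter, scaling, length correction, block, moderation and libraries; voom on recovered reads and a fit without G3TM and G5TM were added after the data were seen. Python 3.11.15 handled tables. Members, lists and tests were chosen with earlier results of these data known. All members were named. Of each list, at most 3 called genes with the largest differences were named for a comparison. Others named (the single cell type markers, Mki67, Sycp1, Rhox5, Tex19.1, Dazl) were chosen after their values were seen. Some genes that this rule would name are not reported here.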

Additional observations from a re-analysis of the deposited data

How the results depend on the processing

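The numbers of members called depended on the setting. Only the larger changes of a count are listed, so a setting not named may differ slightly in its count or in the members called. Counts without the filter and with voom are over all 9 members. For TM minus DM in G1, 1 member was called, against 0 without the filter, with the replicate block, with only the compared groups fitted and without the G3TM and G5TM libraries, and 2 with quantile normalization, the length trend removed or voom. In G3, 2 were called, and 4 with the length trend removed. In G5, 5 were called, and 3 with quantile normalization. As a mean over generations, 4 were called, and 2 with quantile normalization. For G5 minus G3 in DM, 0 were called, and 1 with a pseudocount of 0.1 or the length trend removed. For G3 minus G1 in TM, 2 were called, against 0 without the filter and 1 with quantile normalization, equal totals or the replicate block. For G5 minus G1 in TM, 3 were called, and 1 without the filter or with the replicate block. For the G5 interaction, 0 were called, and 2 with the length trend removed and 1 with voom. Leaving out 1 library in turn gave 0 to 2 in G1, 2 in G3, 4 to 5 in G5, 2 to 5 for the mean, 0 to 2 for G3 minus G1 and for G5 minus G3 in DM, 0 to 3 and 0 to 4 for G3 and G5 minus G1 in TM, and 0 to 2 for the G5 interaction; a lone G1 or G3DM library is then assumed to vary like the other groups.

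Results that reversed did so with the length trend removed, and the cause was not tested. Dnmt3a was then 0.89 in G5, 0.51 as the mean and 1.09 for G5 minus G1 in TM. Tet3 was 0.83 in G5, 0.46 as the mean, 0.70 and 0.51 for G3 and G5 minus G1 in TM, and 0.91 for the G5 interaction. Tet2 was 0.032 as the mean and 0.060 and 0.21 for G3 and G5 minus G1 in TM. The mean difference of Tet2 was called under 7 of 23 alternatives (adjusted p 0.000142 to 0.856) and that of Daxx under 5 of 23 (0.00873 to 0.902). Over all genes, G1 calls numbered 159, against 408 with quantile normalization, 243 with the length trend removed, 37 with only the compared groups fitted and 95 with the replicate block; voom called 206 in G1 and 9012 in G5.

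The replicate numbers did not pair the libraries: of 33 same-numbered pairs 9 had a correlation of deviations above 0.1 (range −0.54 to 0.38), and 2 of 15 libraries correlated best with their own number. With the replicate block the G1 difference of Dnmt1 was 1.10 (adjusted p = 0.0745) and the mean of Atrx −0.77 (adjusted p = 0.0434). Low read numbers of Dnmt3b, Tet1 and Tet2 limit their precision.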
